A study of Mus musculus with 2 samples.

Results

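Red blood cells are described here through the genes that make them other than the globins, in RNA of the embryonic mouse hindbrain, which gives rise to the cerebellum, pons and medulla. A list of 9 genes was given by name: transcription factors, the erythropoietin receptor, a heme enzyme, iron carriers and membrane proteins of the red cell. Members were taken by their gene symbol in both gene tables, and 8 of the 9 were matched, out of 43346 Ensembl genes. The remaining listed gene had no match by symbol and is not analysed here. The matched genes are Gata1, Klf1, Epor, Alas2, Tfrc, Slc25a37, Slc4a1 and Epb42.

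The samples are 2 libraries of total RNA from healthy embryos of the B6NCrl strain at embryonic day 12.5 (e12.5), with both sexes mixed. Replicate 1 came from a pool of 120 embryos and replicate 2 from a pool of 88 embryos, so a library is the average of many animals and holds no spread between single embryos. The labels give both pools the same donor entry, so how far they are independent is not known, and an SD of n = 2 carries that limit. Each library started from 10 ng of RNA longer than 200 nt with added ERCC spike-ins, which are external RNAs of known amount. Both belong to 1 group, so there is no contrast of conditions: every p-value below compares these 2 libraries, not conditions. Depth was 31633169 expected counts for replicate 1 and 29766460 for replicate 2, where an expected count is the estimated number of fragments of a gene. Levels are in TPM, a length-normalised abundance that allows genes to be compared within a library, and means are given ± SD (n = 2).

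At this age red cells of mice come from the yolk sac and the fetal liver, and the circulation carries primitive, still nucleated erythrocytes that hold RNA. In red cell precursors the factors Gata1 and Klf1 switch on genes for heme, globin and the membrane, and erythropoietin acting on its receptor keeps the precursors alive. Iron enters through the transferrin receptor, passes into the mitochondrion and is built into heme. In bulk tissue such as this, fewer cells of a type and less RNA per cell cannot be told apart.

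The upstream sequences are shown because the rule that listed the genes did not use them. Of the 8 genes, 6 have an entry in RefSeq's table of promoters (GRCm38.p6), and 250 bases upstream of each start were searched on both strands. A Gata word, that is A or T followed by GATAA or GATAG, as in the core of sites bound by Gata factors, occurred in the windows of Klf1, Epor, Alas2 and Epb42, and in 26.5% of all 32841 windows of that length. The word CACCC, the core of sites bound by Klf factors, occurred in the windows of Klf1, Epor, Alas2, Gata1 and Tfrc, and in 52.0% of all windows. No Gata word overlapped a CACCC word in these windows. A match is a stretch of letters and was not tested for binding. Below are the windows of 4 genes, 5′ to 3′ on the gene's strand, cut where an annotated exon begins, with both kinds of word in capitals, on either strand.
Klf1 (chr8:84901732-84901927, + strand): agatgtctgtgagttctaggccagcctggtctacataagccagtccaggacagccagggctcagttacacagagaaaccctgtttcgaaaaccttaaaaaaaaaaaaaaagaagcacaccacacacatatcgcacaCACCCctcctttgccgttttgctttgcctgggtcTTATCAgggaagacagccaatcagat
Epor (chr9:21963577-21963826, - strand): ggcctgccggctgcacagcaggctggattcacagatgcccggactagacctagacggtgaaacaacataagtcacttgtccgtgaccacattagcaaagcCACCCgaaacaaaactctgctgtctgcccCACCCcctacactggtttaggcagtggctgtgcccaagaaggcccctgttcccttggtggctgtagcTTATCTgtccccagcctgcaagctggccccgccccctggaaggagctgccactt
Alas2 (chrX:150547167-150547374, + strand): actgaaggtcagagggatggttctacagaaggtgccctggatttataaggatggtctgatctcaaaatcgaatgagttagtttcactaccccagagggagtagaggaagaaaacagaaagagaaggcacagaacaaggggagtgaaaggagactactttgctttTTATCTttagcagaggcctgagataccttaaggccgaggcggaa
Gata1 (chrX:7967911-7968160, - strand): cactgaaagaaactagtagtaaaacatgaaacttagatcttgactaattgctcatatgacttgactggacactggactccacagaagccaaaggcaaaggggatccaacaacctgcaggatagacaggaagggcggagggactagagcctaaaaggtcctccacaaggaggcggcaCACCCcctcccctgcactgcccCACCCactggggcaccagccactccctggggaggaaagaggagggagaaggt
The Gata word lay at bases -80 to -75 from the RefSeq start in Klf1, at -54 to -49 in Epor and at -86 to -81 in Alas2. The Alas2 window held 3 CACCC words between bases -40 and -26, which fall in an annotated exon and are not printed. These letters were not found as a Gata word in the window of Gata1, whose 2 CACCC words are at -74 to -70 and -52 to -48.

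All 8 erythroid genes had counts in both libraries, and their levels spread widely. Tfrc and Alas2 led, followed by Slc4a1, Slc25a37, Epb42, Klf1, Epor and Gata1. The highest of them was 33.4 times the lowest in replicate 1 and 56.7 times the lowest in replicate 2. Their median was 9.41 TPM in replicate 1 and 8.42 TPM in replicate 2 (8.91 ± 0.704), against 10.7 and 10.8 TPM for all 19209 genes tested. A level of 1 TPM or more in both libraries was reached by 7 of the 8, and Gata1 was under it in replicate 2. It was reached by 15276 of the 19209 genes tested, and by 35.5% of all Ensembl genes. All 8 genes are among those tested, so the first of these is the like comparison, and most tested genes reached the level too. Together the 8 genes made up 131 TPM in replicate 1 and 129 TPM in replicate 2.

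**Figure D1:**
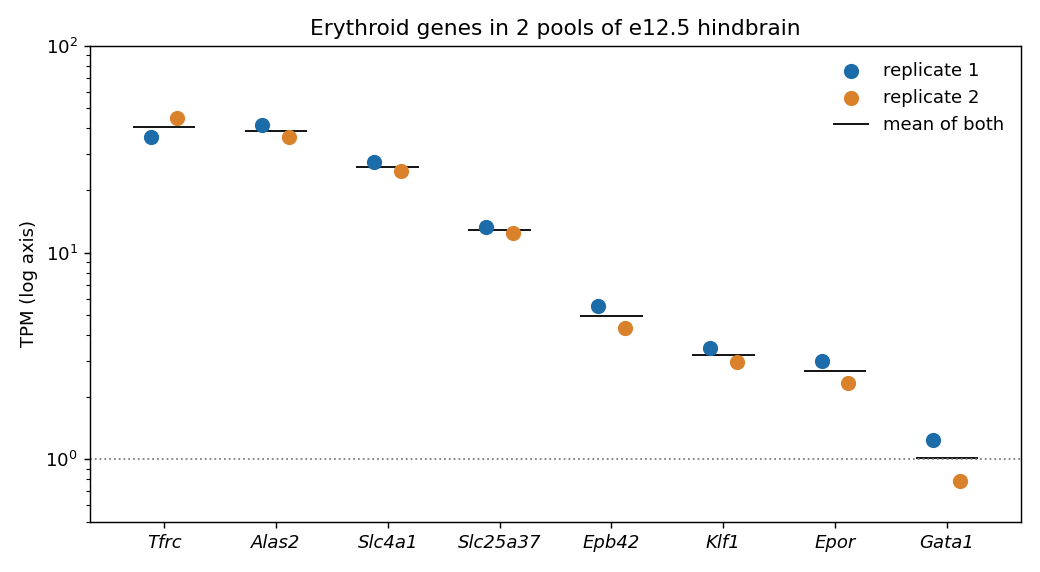
TPM on a log axis of the 8 erythroid genes in replicate 1 (blue) and replicate 2 (orange), with the mean of both as a line and 1 TPM dotted. The genes run from Tfrc at a mean of 40.4 TPM to Gata1 at 1.02 TPM, and Tfrc is the only gene plotted whose point is lower in replicate 1, which turns with spike-in scaling.

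In this order of levels, which counts all transcripts of a gene, coding or not, most neighbours were separated in both libraries. Tfrc and Alas2 were not, since the ratio of Tfrc to Alas2 was 0.871 in replicate 1 and 1.24 in replicate 2. Klf1 was above Epor within each library, at a ratio of 1.15 in replicate 1 and 1.26 in replicate 2, but the ranges of their TPM overlapped. The ratio of Alas2 to Slc4a1 was 1.52 in replicate 1 and 1.46 in replicate 2, and that of Slc4a1 to Slc25a37 was 2.06 and 1.99 in replicates 1 and 2. The last 2 ratios moved less between the libraries than the levels they are made of.

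Gata1 (ENSMUSG00000031162.10, chrX:7959260-7978071 on mm10, - strand) encodes the zinc finger factor that red cell precursors cannot do without. It had 1.24 TPM in replicate 1 and 0.79 TPM in replicate 2, from 32 and 25 expected counts at effective lengths of 1358 and 1803 bases. The log2 ratio of its scaled counts, replicate 1 over replicate 2, was 0.26, with a 95% exact interval of -0.55 to 1.07 that covers counting error only, and the adjusted p by the exact binomial test was 0.791. It was the lowest of the 8 genes, and its counts could not show a difference of the size seen here. The TPM values differ by more than the counts because 4.93 counts went to the short transcript Gata1-202 in replicate 1 and 0 in replicate 2, which shortened the effective length in replicate 1. Its relatives Gata2 and Gata3, which also act in hindbrain neurons, stood far above it: the ratio of Gata2 to Gata1 was 15.6 in replicate 1 and 19.0 in replicate 2, and that of Gata3 to Gata1 was 41.7 and 49.4.

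Klf1 (ENSMUSG00000054191.7, chr8:84901928-84905291, + strand) encodes the Krüppel-like factor that switches on adult β-globin and many membrane genes. It had 3.45 TPM in replicate 1 and 2.95 TPM in replicate 2, from 94 and 74 counts at an effective length of 1435 bases in both. The log2 ratio of counts was 0.24 (-0.21 to 0.70), and the exact binomial test gave an adjusted p of 0.513. The value was higher in replicate 1, within what counting error allows. Klf3, a broadly expressed relative that acts mainly as a repressor, stood above Klf1 by 7.96 ± 1.36 times.

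Epor (ENSMUSG00000006235.5, chr9:21958897-21963506, - strand) encodes the receptor for erythropoietin. It had 2.99 TPM in replicate 1 and 2.35 TPM in replicate 2, from 98 and 71 counts at an effective length of 1730 bases. The log2 ratio of counts, 0.36 (-0.09 to 0.83), was the highest of the 8 genes, and its adjusted p by the exact binomial test was 0.276. The receptor was thus present at a low level in both pools without a resolved difference between them. Its ligand gene Epo had 1 count in replicate 1 and 2 counts in replicate 2, both under the floor of 3 counts.

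Alas2 (ENSMUSG00000025270.9, chrX:150547375-150570638, + strand) encodes the erythroid form of aminolevulinate synthase, the enzyme that begins heme synthesis. It had 41.4 TPM in replicate 1 and 36.3 TPM in replicate 2, a mean of 38.8 ± 3.65, from 1445 and 1125 counts at effective lengths of 1840 and 1773 bases. Its counts were higher in replicate 1, at a log2 ratio of 0.26 (95% exact interval 0.15 to 0.37), with an adjusted p of 9.26e-05 by the exact binomial test. By edgeR's exact test, which adds the spread estimated across genes, the unadjusted p was 0.180 and the adjusted p was 1. The ubiquitous form Alas1 had 46.2 TPM in replicate 1 and 52.3 in replicate 2, so the ratio of Alas1 to Alas2 was 1.12 and 1.44. The span of Alas2 lies inside that of Apex2 on the opposite strand, which had 18.9 TPM in replicate 1 and 18.6 TPM in replicate 2; no source used here says whether the counting used strand, and a part of either count could belong to the other gene.

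Tfrc (ENSMUSG00000022797.11, chr16:32608920-32632794, + strand) encodes transferrin receptor 1, which takes up iron in dividing cells of every kind and most of all in erythroblasts. It had 36.1 TPM in replicate 1 and 44.8 TPM in replicate 2, a mean of 40.4 ± 6.15, from 2691 and 2855 counts at effective lengths of 3932 and 3645 bases. Scaled by TMM, which sets the bulk of genes equal, its counts were lower in replicate 1, at 0.879 of those in replicate 2 (0.833 to 0.927), with an adjusted p of 2.83e-05 by the exact binomial test. By edgeR's exact test the unadjusted p was 0.324 and the adjusted p was 1. Under TMM scaling, but not under the spike-ins, Tfrc was the only one of the 8 genes lower in replicate 1. Its interval on the log2 scale, -0.26 to -0.11, did not overlap that of Alas2, 0.15 to 0.37, or that of Slc4a1, 0.06 to 0.24. These intervals cover counting error only, and none of these genes passed by edgeR's exact test. Scaled by the spike-ins, the log2 ratio of Tfrc counts turned to 0.18 with an adjusted p of 6.03e-06 by the exact binomial test, while the median of all tested genes moved to 0.37. Spike-ins took 3.41% of all counts in replicate 1 and 4.36% in replicate 2. This scaling moves the log2 ratio of every gene by the same amount, so the place of Tfrc among the other genes is fixed by construction.

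Alas2 and Tfrc carry iron-responsive elements, short hairpins in the RNA that iron regulatory proteins bind when iron is scarce, which blocks translation of Alas2 and slows the decay of Tfrc RNA. Annotated transcripts were searched for C, 5 bases, the loop CAGTGN with N any base but G, and 5 bases that pair with the first 5, G-T pairs allowed. Of genes with an annotated 5′ untranslated region 0.108% held such a pattern there, and of genes with a 3′ untranslated region 0.519% held one there. The matches in Alas2 and Tfrc are shown, with the loop in capitals, because iron acts on these RNAs through elements of this kind. An element that departs from the pattern is missed by this search, so the matches need not be all the elements of either gene.
Alas2, 5′ region (chrX:150547459-150547485, + strand): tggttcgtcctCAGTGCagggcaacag
Tfrc, 3′ region, at the 5′ end (chr16:32631220-32631246, + strand): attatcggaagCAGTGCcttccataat
Tfrc, 3′ region, next (chr16:32631599-32631625, + strand): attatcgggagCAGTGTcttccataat
Tfrc, 3′ region, next but one (chr16:32631664-32631690, + strand): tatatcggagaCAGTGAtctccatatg
Tfrc, 3′ region, at the 3′ end (chr16:32631711-32631737, + strand): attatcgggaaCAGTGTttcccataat
Transcripts with the element made up 94.7% of Alas2 TPM in replicate 1 and 91.4% in replicate 2. Transcripts with the 4 matches made up 86.2% of Tfrc TPM in replicate 1 and 79.8% in replicate 2, part of it in a transcript annotated as holding a retained intron. So in both libraries most of the RNA assigned to either gene carried the hairpin sequence. Whether iron regulatory proteins bound them was not measured.

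Slc25a37 (ENSMUSG00000034248.7, chr14:69241848-69285112, - strand) encodes mitoferrin 1, which carries iron into the mitochondria of erythroid cells. It had 13.3 TPM in replicate 1 and 12.5 TPM in replicate 2, from 1103 and 987 counts at effective lengths of 4382 and 4509 bases. The log2 ratio of counts was 0.06 (-0.07 to 0.18), with an adjusted p of 0.593 by the exact binomial test. On the log2(TPM+1) scale its ratio, 0.08, was the nearest to 0 of the 8 genes, except with spike-in scaling, where that of Tfrc was. Its ubiquitous counterpart Slc25a28, mitoferrin 2, was near it, since the ratio of Slc25a37 to Slc25a28 was 1.26 in replicate 1 and 1.11 in replicate 2. Genes annotated across the span of Slc25a37 had at most 4 counts each.

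Slc4a1 (ENSMUSG00000006574.11, chr11:102348824-102366203, - strand) encodes band 3, the anion exchanger that anchors the red cell membrane to its skeleton. It had 27.3 TPM in replicate 1 and 24.9 TPM in replicate 2, a mean of 26.1 ± 1.75, from 2306 and 1934 counts at an effective length of 4446 bases. Its counts were 1.11-fold higher in replicate 1 (1.05 to 1.18), with an adjusted p of 0.00528 by the exact binomial test. By edgeR's exact test the unadjusted p was 0.423 and the adjusted p was 1.

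Epb42 (ENSMUSG00000023216.9, chr2:121017891-121037072, - strand) encodes protein 4.2, a membrane skeleton protein bound to band 3. It had 5.55 TPM in replicate 1 and 4.32 TPM in replicate 2, from 196 and 167 counts at effective lengths of 1863 and 2211 bases. The log2 ratio of counts was 0.13 (-0.18 to 0.44), with an adjusted p of 0.633 by the exact binomial test. The ratio of Slc4a1 to Epb42 was 4.93 in replicate 1 and 5.76 in replicate 2. So the RNA of Slc4a1 stood above that assigned to Epb42 in both pools, and protein was not measured. Coding transcripts held only 26.9% of Epb42 TPM in replicate 1 and 23.3% in replicate 2. Epb42-202 had 1.15 and 0.65 TPM in replicates 1 and 2, and Epb42-201 had 0.35 TPM in each. Both lay below Klf1 and Epor, so in coding RNA the gap to Slc4a1 was wider than these ratios.

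Set side by side, 7 of the 8 genes had higher counts in replicate 1 with TMM scaling, against 9699 of all 19209 genes tested. With spike-in scaling all 8 had, but that scaling moved the median log2 ratio of counts of all tested genes to 0.37 as well. With TMM 3 of the 8 (37.5%) differed at an adjusted p under 0.05 by the exact binomial test. Among all genes tested that share was 20.4%. Higher in replicate 1 were Alas2 and Slc4a1, 2 of 8 against 9.68% of all genes, and lower, except with spike-in scaling, was Tfrc, 1 of 8 against 10.7%. These are the 3 genes with the most counts, so the test had the most power for them, and with 8 genes the shares say little. By edgeR's exact test, 0 of the 8 differed, against 1.57% of all genes, and at an unadjusted p under 0.05 it gave 0 of the 8 and 1285 of the 19209 genes. The spread it uses was estimated from these same 2 libraries, so its 0 does not show that the genes are equal in them. The median log2 ratio of counts was 0.20 over the 8 genes and 0.00 over all genes tested. On the log2(TPM+1) scale it was 0.18 against -0.01. The SD of that ratio over single genes was 0.39 at 1 to 5 TPM and 0.19 at 10 to 100 TPM. Among the members at 10 to 100 TPM it was -0.30 for Tfrc, larger in size than that SD, while the log2 ratio of its counts was -0.19. How many of the 8149 tested genes at that level lay beyond the SD was not counted. For the other members at that level the log2(TPM+1) ratio was 0.19 for Alas2, 0.13 for Slc4a1 and 0.08 for Slc25a37. Among those at 1 to 5 TPM it was 0.32 for Gata1, 0.30 for Epb42, 0.25 for Epor and 0.17 for Klf1, all under the SD of 0.39. Summed over the 8 genes, the log2 ratio of counts was 0.04 (-0.01 to 0.08), because the many counts of Tfrc weigh against the others.

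**Figure D2:**
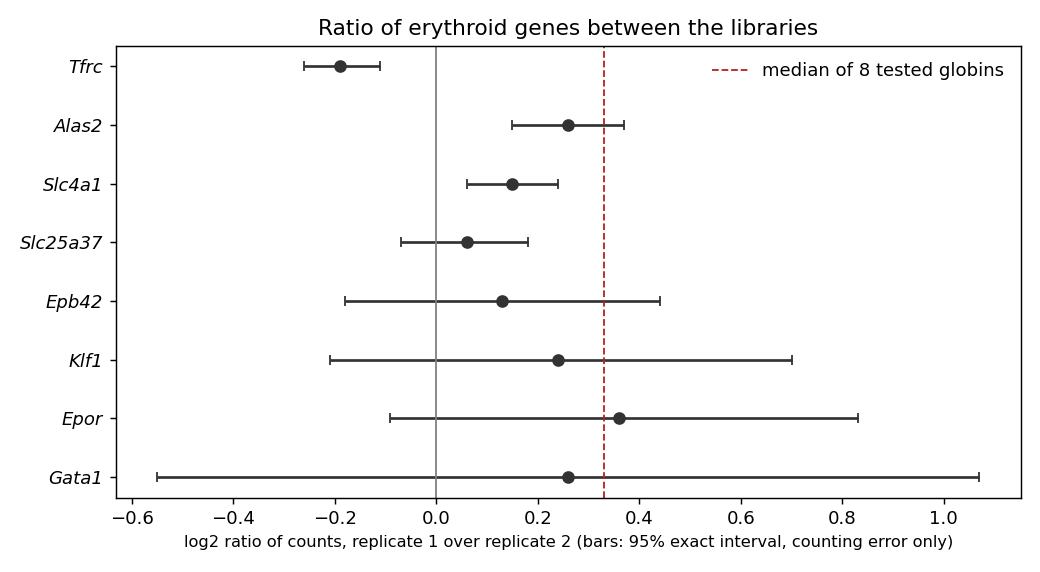
Log2 ratio of scaled counts, replicate 1 over replicate 2, of the 8 erythroid genes (points) with 95% exact intervals for counting error (bars), the median of 8 tested globins as a dashed line at 0.33, and no difference as a grey line. With the TMM scaling plotted, Tfrc at -0.19 lies left of the grey line (0.18 with spike-in scaling), Alas2 at 0.26 and Slc4a1 at 0.15 lie right of it with their intervals, and the intervals of the other 5 genes cross it.

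The transcripts behind each gene differ in how well they are resolved. Klf1 and Epor each have 1 transcript in the deposited data, so all their TPM fell on it by construction. Slc4a1, with 5 transcripts there, had all its TPM on its coding transcript in both libraries. Alas2-201 held 82.5% of Alas2 TPM in replicate 1 and 66.9% in replicate 2, and Alas2-202, whose annotated coding sequence is shorter, held 12.3% and 24.5%. Tfrc-201 held 64.1% of Tfrc TPM in replicate 1 and 57.5% in replicate 2, while Tfrc-204, annotated with a retained intron, held 22.2% and 22.4%. Slc25a37-201 held 76.4% and 75.3% of its gene in replicates 1 and 2, with most of the rest on a retained intron transcript. The leading transcript was thus the same in both libraries for Slc4a1, Alas2, Tfrc and Slc25a37, and it was for Gata1 too.

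Epb42 was the exception. Its coding transcripts held only 26.9% of its TPM in replicate 1 and 23.3% in replicate 2. The leading transcript was Epb42-206 in replicate 1, at 32.4% against 0% in replicate 2, and Epb42-203 in replicate 2, at 10.6% in replicate 1 and 54.8% in replicate 2; both are annotated as processed transcripts without a coding sequence. The shares depend on how the authors' method divided fragments among overlapping transcripts and were not tested. With protein-coding transcripts alone, Epb42 had a log2 ratio of counts of 0.65 and also differed between the libraries, with an adjusted p of 0.0242 by the exact binomial test.

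**Figure D3:**
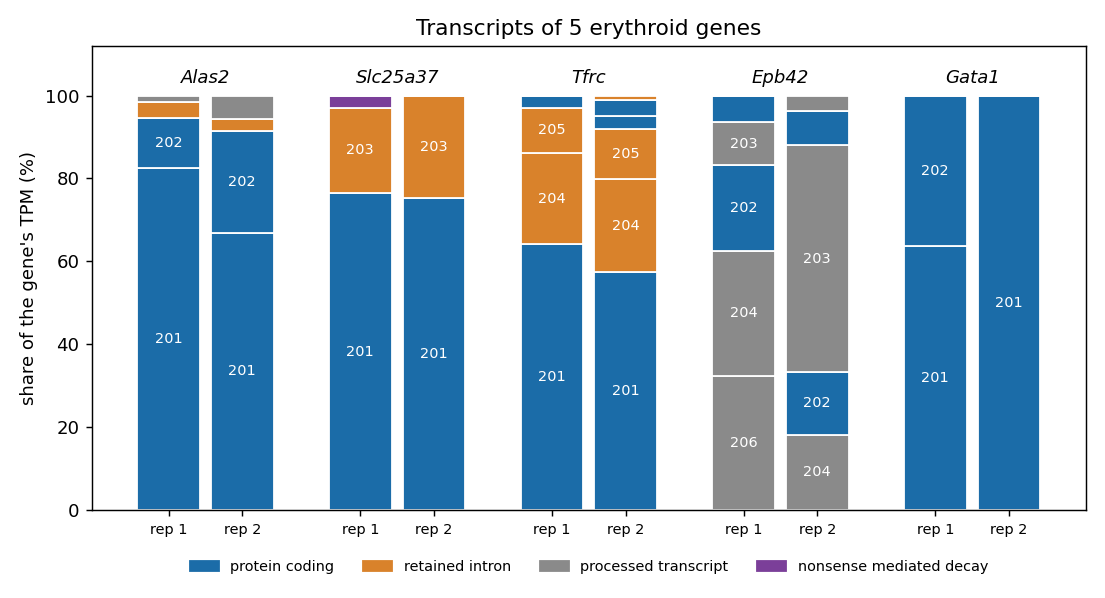
Share of each gene's TPM in percent by transcript, in replicate 1 (left bar) and replicate 2 (right bar), for the 5 erythroid genes with several expressed transcripts; colours give the annotated transcript type and numbers the transcript suffix. Coding transcripts hold most of Alas2, Slc25a37, Tfrc and Gata1 in both libraries, and 26.9% and 23.3% of Epb42 in replicates 1 and 2.

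The rest of the erythroid programme was read from lists of related genes, counted with TMM scaling. The median log2 ratio of counts was 0.08 for heme synthesis, 0.00 for iron handling, 0.13 for maturation and metabolism, and -0.02 each for membrane, transcription factor and erythropoietin signalling genes, against 0.00 for all genes tested. By edgeR's exact test 0 genes of these lists passed after adjustment. Globins were far above the members: Hbb-y, the main embryonic β-like globin, had 8149 TPM in replicate 1 and 6362 TPM in replicate 2. Per TPM, Hbb-y exceeded Alas2 by 197 times in replicate 1 and 175 times in replicate 2, and Slc4a1 by 298 and 256 times. Of 8 globins tested, 7 were higher in replicate 1 by the exact binomial test and 0 lower, with a median log2 ratio of counts of 0.33; among all genes tested 9.68% were higher. By edgeR's exact test 0 of these 8 passed, with an adjusted p of 0.696 for Hbb-y. The interval of Alas2 (0.15 to 0.37) reaches that median and the interval of Slc4a1 (0.06 to 0.24) does not. The next highest globins, Hba-a2 and Hba-a1, are near-identical copies, and the split between them is uncertain.

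Around Alas2, all 8 other heme synthesis genes were above 1 TPM in both libraries, an enzyme chain that other cells use as well. By the exact binomial test 1 was higher in replicate 1 and 2 were lower, against 9.68% and 10.7% of all genes tested. Ppox had a log2 ratio of counts of 0.31, Alas1 of -0.21 and Uros of -0.19. Among those that did not pass were Urod at 71.7 ± 0.976 TPM, Fech at 33.1 ± 1.39, Cpox at 13.4 ± 0.905, and Alad at 52.5 TPM in replicate 1 and 47.5 in replicate 2. Alas2 at 38.8 ± 3.65 TPM lies within their range. Ppox differed in counts but had 48.3 TPM in replicate 1 and 47.9 TPM in replicate 2, because its effective length differed too.

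Around Tfrc and Slc25a37, all 16 iron handling genes were above 1 TPM in both libraries. By the exact binomial test 3 were higher in replicate 1 and 1 lower, against 9.68% and 10.7% of all genes tested. The ferritin light chain Ftl1 had 4979 TPM in replicate 1 and 4633 TPM in replicate 2 and the heavy chain Fth1 1370 and 1240 TPM, and both passed, at log2 ratios of counts of 0.12 and 0.16. Ncoa4, which delivers ferritin for breakdown, had 74.1 TPM in replicate 1 and 75.3 TPM in replicate 2. Ireb2, an iron regulatory protein named after its value was seen, was lower at -0.08.

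Around Slc4a1 and Epb42, 19 membrane and skeleton genes were all above 1 TPM in both libraries. The exact binomial test gave 3 higher and 3 lower in replicate 1, against 9.68% and 10.7% of all genes tested. The most abundant, Epb41, had 154 TPM in replicate 1 and 163 TPM in replicate 2, Slc2a1, a glucose transporter, had 95.7 and 84.4 TPM, and Add2 had 56.6 and 58.7 TPM. These genes are at work in other tissues as well. Of these, Slc2a1 passed as higher, at a log2 ratio of counts of 0.20, and Epb41 as lower, at -0.07, while Slc4a1 had 0.15.

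Around Gata1 and Klf1, 14 of 15 other erythroid transcription factors were above 1 TPM in both libraries. The exact binomial test gave 2 higher in replicate 1 and 0 lower, against 9.68% and 10.7% of all genes tested. Ldb1, a cofactor in Gata1 complexes, had 115 TPM in replicate 1 and 107 TPM in replicate 2, and Bcl11a, a repressor of embryonic globins, had 72.5 and 76.4 TPM. Both are also expressed in neurons. Ldb1 passed, at 0.11, and Gata2, which the list of hindbrain neuron factors holds too, passed at 0.39. Gfi1b, the lowest, had 1.06 TPM in replicate 1 and 0.95 in replicate 2. Of 13 maturation and metabolism genes tested, 5 were higher and 1 lower in replicate 1, against the same shares of all genes. That list was led in level by Prdx2 at 921 ± 62.6 TPM, Bnip3l at 332 ± 1.15 and Cat at 80.6 ± 8.37. Only 11 of its 15 genes reached 1 TPM in both libraries, and the lowest, Alox15, had 0.05 TPM in replicate 1 and 0.07 in replicate 2. Which cells these RNAs came from was not measured. Of 10 genes of erythropoietin signalling tested, 0 were higher and 1, Stat5a, was lower, again against those shares.

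**Figure D4:**
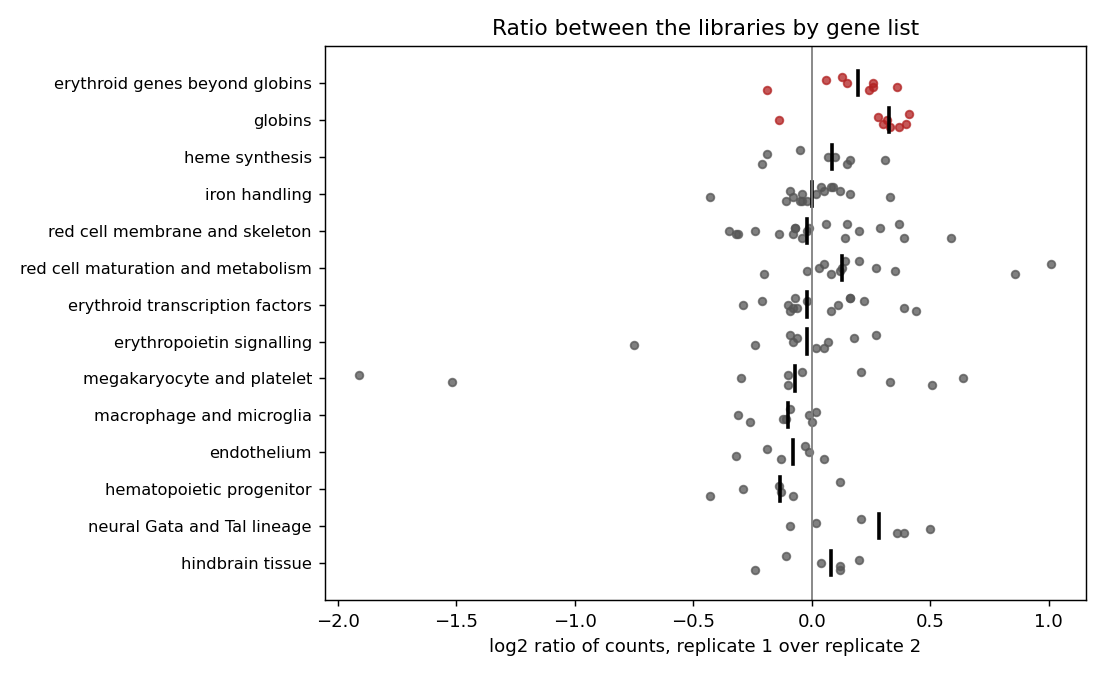
Log2 ratio of counts, replicate 1 over replicate 2, of the tested genes of 14 lists (points, with the erythroid genes and globins in red) and their median (black bar), with no difference as a grey line. The medians are 0.20 for the 8 erythroid genes, 0.33 for the globins, 0.28 for the neural Gata and Tal list and between -0.13 and 0.13 for the other lists plotted; the mast cell and fetal hepatocyte lists, with 2 tested genes each, are not plotted.

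Markers of other cells were measured beside these genes, since Gata1 is also made by megakaryocytes and mast cells and Tfrc by dividing cells of any kind. Of 10 megakaryocyte and platelet genes 7 were above 1 TPM in both libraries, and their sum was 86.4 TPM in replicate 1 and 68.3 TPM in replicate 2. Pf4 made up most of it, at 55.5 TPM in replicate 1 and 39.4 in replicate 2, and was higher in replicate 1 by the exact binomial test, with an adjusted p of 8.99e-06 and a log2 ratio of counts of 0.51, but did not pass by edgeR's exact test (adjusted p 0.411). Mast cell genes summed to 2.47 TPM in replicate 1 and 3.38 in replicate 2, most of it from Hdc at 1.69 and 1.99 TPM and Cpa3 at 0.66 and 1.27 TPM in replicates 1 and 2. The mast cell protease genes Mcpt4 and Tpsb2 were at 0 counts in both. Of the fetal hepatocyte genes Alb, Ahsg, Fgb and Serpina1a were at 0 counts in both libraries, and the list summed to 3.71 TPM in replicate 1 and 5 in replicate 2. All 8 macrophage genes and all 6 endothelial genes were above 1 TPM in both, with sums of 84.8 and 114 TPM in replicate 1 and 91.7 and 123 TPM in replicate 2. The 6 progenitor genes, led by Cd34 and Kit, summed to 78.5 TPM in replicate 1 and 86.6 in replicate 2, and 0 passed. Of 6 neural Gata and Tal genes 3 were higher in replicate 1 and 0 lower by the exact binomial test, against 9.68% and 10.7% of all genes, and 0 passed by edgeR's exact test after adjustment, with Gata3 at 51.7 TPM in replicate 1 and 39.1 in replicate 2. Hindbrain markers were high, with Fabp7 at 1304 TPM in replicate 1 and 1151 in replicate 2. The part of these cells in the values of Gata1 and Tfrc was not tested.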

How the data were processed

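The authors deposited 1 gene and 1 transcript table for each of the 2 libraries, on mm10; the accompanying notes name GENCODE M4. Per the file headers, they hold expected counts, TPM, a posterior mean TPM, FPKM and the percent of a gene's expression on each transcript. Aligner, quantifier and strand were not given in the sources used here. Expected counts, as deposited, divide fragments that match several genes, so they need not be whole, and were rounded for tests. The deposited TPM share a fixed total that includes the spike-ins (8.39% of TPM in replicate 1 and 10.9% in replicate 2). FPKM deposited by the authors served as an alternative, as did the posterior mean TPM.

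Names and coordinates came from GENCODE M21, the same assembly, by Ensembl identifier without version, which matched 42462 of 43346 genes. Of the 69691 entries in the gene table, 26249 are numbered and name no gene; they held 1.07e-04% and 1.14e-04% of counts in replicates 1 and 2 and stayed out of tests. Genes with 10 or more counts summed over both libraries (19209) were scaled by TMM (factors 0.99969 and 1.0003; edgeR 4.0.16, R 4.3.3). The main comparison was an exact binomial test, two-sided (scipy 1.17.1), Benjamini-Hochberg adjusted over all 19209, threshold 0.05. Its intervals cover counting error only, since amplified fragments are not independent molecules. edgeR's exact test used a common dispersion from the same 2 libraries (coefficient of variation 9.02%). The differences under test thus also set that dispersion, and a gene that does not pass is not shown to be equal. TPM ratios are log2(TPM + 1), which understates low genes. A count of 0 allows up to 3 counts, or 0.158 TPM in replicate 1 and 0.171 TPM in replicate 2 at 1 kb. The procedures were tested on simulated data.

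The members and the lists (147 genes in 15 lists) were chosen with earlier results of these data known. Named are all members, the 3 genes of highest mean TPM of each list, at times the lowest, and the heme synthesis genes; some genes that this rule names are not reported, and of some lists fewer are given with values. Genes named for passing the test were named after their values were seen. No gene was named for likeness, since with 2 libraries a pattern is a single ratio. Alternatives were other size factors, spike-in scaling, no count filter, coding transcripts alone, edgeR's test, other pseudocounts and thresholds, other deposited units, and leaving out each library.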

Additional observations from a re-analysis of the deposited data

How the results depend on the processing

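Of the 8 erythroid genes, 3 differed between the libraries with other size factors, where 3915 of all 19209 genes differed. With no filter on low counts 3 differed, against 3651 of 24847 genes, and with coding transcripts alone 4, against 3932 of 15446. With spike-in scaling 7 differed, against 13010 of all 19209 genes. By edgeR's exact test 0 differed, against 301 of 19209, and at an unadjusted p under 0.05 also 0, against 1285. The median log2(TPM+1) ratio of 0.18 was 0.15 to 0.21 with the other settings and 0.50 with TPM scaled by the spike-ins. That scaling moved the median of all tested genes to 0.31, and since it moves all genes nearly alike, the members' median minus that of all genes stayed at 0.19 by construction. It also turned Tfrc to 0.06 on that scale and to 0.18 in counts, the count ratio at an adjusted p of 6.03e-06 by the exact binomial test. Of 40 values of single genes under alternatives, 35 kept their direction within the spread of the libraries, 4 moved by more and 1, Tfrc, turned. At a threshold of 5 TPM 4 genes were detected in both libraries, and at 0.5 TPM 8. Leaving out a library gave 7 to 8 genes at 1 TPM and a median of 8.42 to 9.41 TPM. The median was 5.30 in FPKM, which is another unit. The cause of these changes was not tested beyond the construction of each alternative. No paired analysis was possible because there is 1 group. Depth limits Gata1, Klf1 and Epor, whose 32 to 98 counts in replicate 1 leave intervals that cross 0.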

Other observations

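Some genes of the related lists also differed by the exact binomial test. Hemgn, a nuclear protein of red cell precursors, had 152 counts in replicate 1 and 78 in replicate 2, a log2 ratio of 0.86 (0.46 to 1.27), with an adjusted p of 1.82e-04 by the exact binomial test and, by edgeR's exact test, an unadjusted p of 0.00173 and an adjusted p of 0.0870. Rhd, a blood group membrane gene, had 8.23 TPM in replicate 1 and 6.34 TPM in replicate 2, at a log2 ratio of counts of 0.39 (0.09 to 0.70) and an adjusted p of 0.0492 by the exact binomial test. Car2, a carbonic anhydrase, had 62.9 TPM in replicate 1 and 50.04 TPM in replicate 2, at 0.35 (0.25 to 0.45). Gypc, a glycophorin, went the other way, with 20.5 TPM in replicate 1 and 24.6 TPM in replicate 2, at -0.24 (-0.38 to -0.10). None of these 4 passed by edgeR's exact test after adjustment, and they were named after their values were seen.

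Counts and TPM can disagree on a gene where the effective length differs between libraries. Ermap, an erythroid membrane gene, had 321 counts in replicate 1 and 199 in replicate 2, but 5.92 and 6.25 TPM. Effective lengths differed by more than 1.2-fold in 521 of 15751 tested genes averaging at least 1 TPM (3.31%), and in 1 of the 8 erythroid genes, Gata1. Whatever their effective lengths, the sign of the 2 ratios was opposite in 1724 of the 15751 genes and in 0 of the 8. With 8 genes that 0 says little.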
